A study of Mus musculus with 6 samples.

Results

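The unfolded protein response was followed here through 10 genes: the sensors Ern1 and Atf6, the transcription factors Atf4, Ddit3 and Xbp1, the inhibitor Trib3, the chaperones Hspa5, Hsp90b1 and Dnajb9, and the degradation factor Herpud1. They were found by their symbols, and all 10 were among the 33924 genes of the deposited RPE/choroid table. RPE/choroid is the pigmented cell layer behind the retina with the vascular layer beneath it. Total RNA was sequenced after depletion of ribosomal RNA, in 3 libraries from young and 3 from aged C57BL/6J mice, each made from a pair of eyes. No transgene, mutant allele or agent is named for either group. The sample titles put the young mice at 1 to 2 months and the aged mice at 20 to 24 months, while the time label of the aged mice reads 22 to 24 months. All 6 mice are labelled male, whereas the study's methods mention both sexes and a higher age for the young mice.

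The table holds 1 level per gene, the authors' mean of normalized counts over all 6 libraries, young and aged together. Values of single mice were not analysed here, so the levels carry no SD and no test, and differences between young and aged mice are not analysed here. Depth per library is unknown here. The levels of all genes summed to 19192071 normalized counts, of which the 10 genes held 32101. Of the 33924 genes, 7243 were listed at 0, and the median of the 26681 above 0 was 82.1 normalized counts.

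The endoplasmic reticulum (ER) folds secreted and membrane proteins, and an excess of unfolded protein there switches on the unfolded protein response. Its sensors are IRE1, which splices the Xbp1 mRNA; PERK, which slows translation by phosphorylating eIF2alpha and thereby favours translation of Atf4; and ATF6, which is cut in the Golgi to release a transcription factor. Their targets are chaperones, degradation factors and, under lasting stress, genes linked to cell death. In the RPE, which digests photoreceptor outer segments and secretes proteins throughout life, the response has been studied in ageing and retinal degeneration.

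The 2 abundant chaperones and Herpud1 had promoters with an ER stress response element, and the stretches before their start sites are shown because the element is what activated ATF6 and XBP1 bind together with NF-Y. The element (ERSE) was searched as CCAAT and CCACG with 9 bases between them, and its variant ERSE-II as ATTGG and CCACG with 1 base between them, on both strands. Sequences are from RefSeq on GRCm38.p6, 5′ to 3′ on the strand of the gene and ending at the base before the start site. They lie at chr2:34771840-34772089 (plus strand) for Hspa5, chr10:86705445-86705694 (minus strand) for Hsp90b1 and chr8:94386179-94386428 (plus strand) for Herpud1. Capitals mark ERSE in Hspa5 and Hsp90b1. In Herpud1 they mark, in order, a match to the C/EBP-ATF response element (CARE) and ERSE-II.
Hspa5: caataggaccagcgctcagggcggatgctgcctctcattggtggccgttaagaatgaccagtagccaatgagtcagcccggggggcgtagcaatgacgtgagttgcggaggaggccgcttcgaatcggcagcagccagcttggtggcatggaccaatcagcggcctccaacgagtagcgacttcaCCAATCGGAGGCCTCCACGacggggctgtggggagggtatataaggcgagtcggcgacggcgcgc
Hsp90b1: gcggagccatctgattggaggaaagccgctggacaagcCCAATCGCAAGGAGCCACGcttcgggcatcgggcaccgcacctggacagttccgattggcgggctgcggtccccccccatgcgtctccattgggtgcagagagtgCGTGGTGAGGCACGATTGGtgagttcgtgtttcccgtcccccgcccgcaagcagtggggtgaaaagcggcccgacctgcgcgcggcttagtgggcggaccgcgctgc
Herpud1: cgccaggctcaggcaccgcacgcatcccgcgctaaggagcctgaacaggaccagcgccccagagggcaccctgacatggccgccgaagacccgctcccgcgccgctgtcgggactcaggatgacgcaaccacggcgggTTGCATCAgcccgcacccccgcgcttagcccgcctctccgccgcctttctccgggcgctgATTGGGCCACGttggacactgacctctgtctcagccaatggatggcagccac

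The Hspa5 promoter held 1 ERSE, from -65 to -47 relative to the start site. Hsp90b1 held 2, from -212 to -194 and, on the opposite strand, from -107 to -89. Herpud1 held no exact ERSE but an ERSE-II from -52 to -42. Of 32851 promoters of the same 300-base window (250 bases before and 50 after the start), 39 held an ERSE (0.119%) and 12 an ERSE-II (0.0365%). With both elements counted, 3 of the 9 genes with a promoter sequence had a match, against 51 of all promoters (0.155%). The elements were chosen because factors of this response bind them, so these counts describe the promoters and test nothing. Atf6 had no sequence in the promoter table.

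Hspa5, which encodes BiP, the ER Hsp70 that also holds the sensors inactive, had the highest level of the 10. Its level was 11639.7 normalized counts, place 121 among all genes and percentile 99.5 of the genes above 0. Hsp90b1, which encodes the ER Hsp90 GRP94, followed at 8896 (place 189). Dnajb9 encodes ERdj4, a cochaperone that stimulates BiP and helps it repress IRE1. It stood at 766, at percentile 78.4. The chaperone genes thus lay at both the top and the lower part of the list.

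Herpud1, a membrane protein that organises the complex for ER-associated degradation, had a level of 2674 normalized counts and percentile 94.6. Among the transcription factors, Atf4 stood at 2360.2 and Xbp1 at 2127. Ddit3, which encodes CHOP, a factor linked to cell death under ER stress, was lower at 688. Of the sensors, Atf6 had 2044 normalized counts and Ern1, which encodes IRE1, had 844. Trib3, which encodes a pseudokinase induced by ATF4 and CHOP that in turn inhibits ATF4 and AKT, was far below the others at 62.0, at percentile 47.6.

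Of the 10 genes, 9 lay above the median of the genes above 0, and Trib3 was the exception. A level of at least 1000 was reached by 6 of them, beside 17.4% of all genes above 0. Their median percentile was 92.2.

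**Figure D1:**
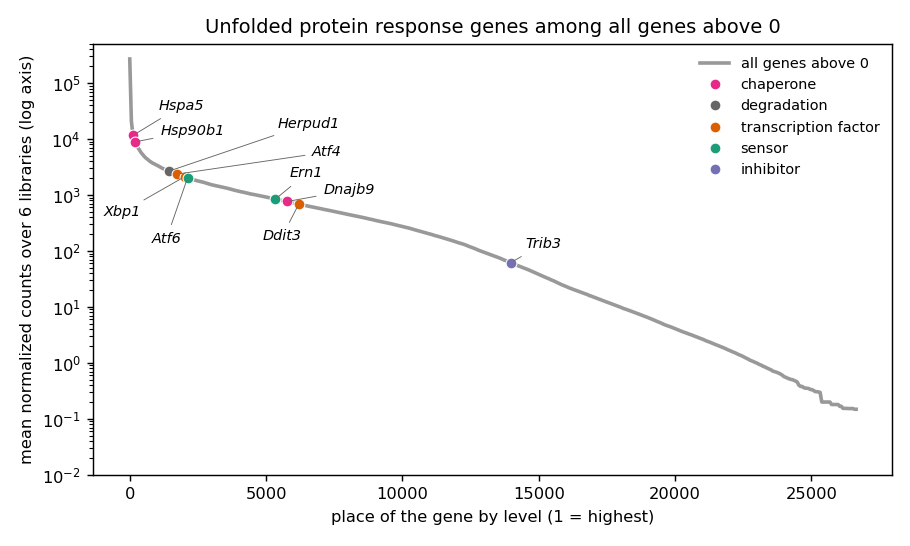
Mean normalized counts over 6 libraries (log axis) against the place of each gene among the 26681 genes above 0, with the 10 genes as points coloured by role and all genes as the grey line. Hspa5 and Hsp90b1 sit at the top of the curve, and Trib3, at 62.0, is the only point below the median of 82.1.

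Counts of reads grow with the length of an RNA. Levels of different genes were therefore compared per kilobase of coding length (GENCODE M21), and per kilobase of spliced transcript as an alternative. The authors state that their normalized counts were derived from TPM, an abundance unit already divided by transcript length. Whether the levels used here carry that correction was not tested. If they do, the values per kilobase are corrected for length again, and the undivided levels given above are the ones to compare. Per kilobase of coding length, Hspa5 had 5924 normalized counts and Hsp90b1 3697. Xbp1 followed with 2655, Herpud1 with 2280.03 and Atf4 with 2254. The middle of the order was Ddit3 with 1365, Dnajb9 with 1149.8 and Atf6 with 1038. Ern1 had 288 and Trib3 58.3.

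No spread is known for these means, so it cannot be said which neighbours in the order differ. Herpud1 and Atf4 were closest, at a ratio of 1.01, followed by Dnajb9 and Atf6 at 1.11. By coding length the widest steps were at the bottom: Atf6 stood 3.61 times above Ern1, and Ern1 4.94 times above Trib3. From end to end, Hspa5 was 102 times Trib3.

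Some of these ratios turned on the length used. Per kilobase of transcript, Hspa5 and Hsp90b1 came to 3169.9 and 3149, a ratio of 1.01 in place of 1.60. Xbp1, whose transcript is 2129 bases long for 801 coding bases, moved from above to below Atf4, from a ratio of Atf4 to Xbp1 of 0.849 to one of 1.37. The step from Atf6 to Ern1 narrowed from 3.61 to 2.32, below that from Ddit3 to Dnajb9, which was 2.48 by transcript length. The Hspa5 to Trib3 ratio was 104 per kilobase of transcript. The first and last 2 places were the same under both lengths.

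**Figure D2:**
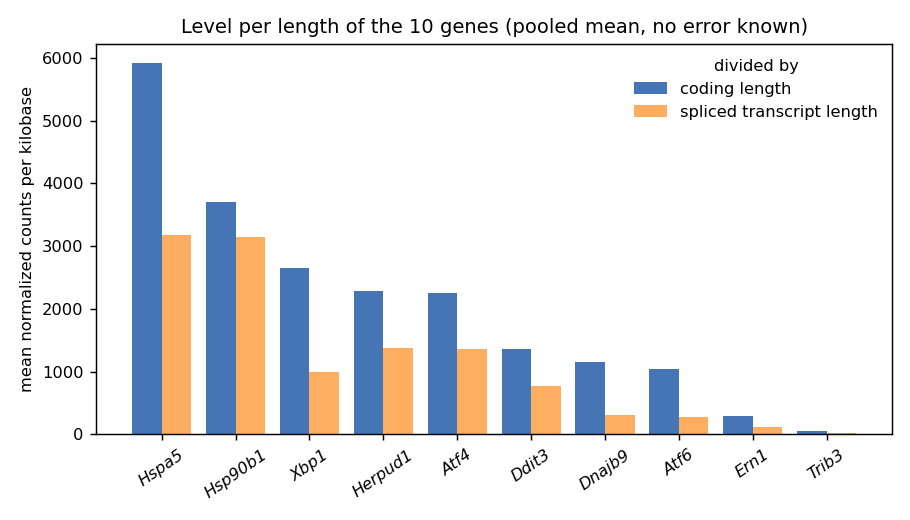
Mean normalized counts per kilobase (linear axis) for the 10 genes, by coding length and by spliced transcript length. Hspa5 and Hsp90b1 lead and Ern1 and Trib3 come last under both, while Xbp1 takes place 3 by coding length and place 5 by transcript length.

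The chaperone pair held much of the summed level. Per kilobase of coding length, Hspa5 made up 28.6% of the sum over the 10 genes and Hsp90b1 17.9%, together 46.5%. Xbp1, Atf4 and Ddit3 made up 12.8%, 10.9% and 6.59%. Ern1 and Trib3 contributed 1.39% and 0.282%. Per kilobase of transcript, Hspa5 and Hsp90b1 made up 27.4% and 27.2%, together 54.6%.

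Along the arm that starts at IRE1, the mRNA of the substrate had a higher level than that of the enzyme: Xbp1 was 9.22 times Ern1 per kilobase of coding length and 8.22 times per kilobase of transcript. IRE1 removes a stretch of 26 bases from the Xbp1 mRNA, which shifts the reading frame and yields the active factor. The coding length used for Xbp1, 801 bases, is that of the form that keeps this stretch. Its place and ratios by coding length rest on that form. The stretch is shown because the level of the gene sums both forms. It was located by its pair of cut sites, each between CNG and CAGC, and lies in exon 4, within the coding sequence, at chr11:5524279-5524304 (GRCm38, plus strand). The window shown is chr11:5524249-5524334, with the removed bases in capitals.
Xbp1: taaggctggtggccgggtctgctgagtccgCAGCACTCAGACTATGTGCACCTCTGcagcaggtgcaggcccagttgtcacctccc

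A count per gene cannot separate the spliced from the unspliced form of Xbp1, so activity of IRE1 is not given by 2127 normalized counts. The same holds for the other arms: cutting of ATF6, phosphorylation of PERK and translation of Atf4 are not measured by the mRNA levels of these genes. The Xbp1 promoter held no match to ERSE, ERSE-II, the XBP1 and ATF6 site UPRE (TGACGTGG), CARE (TGATGNAA) or the cyclic AMP element CRE (TGACGTCA).

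Along the PERK arm the levels stood in the order Atf4, Ddit3, Trib3. Atf4 was 1.65 times Ddit3 and 38.6 times Trib3 per kilobase of coding length, and 1.77 and 44.7 times per kilobase of transcript. Ddit3 and Trib3 are both known targets of ATF4. CARE, the element ATF4 binds as a dimer with C/EBP factors, was matched by TTACATCA, its reverse strand, from 15 to 22 bases after the start of Trib3 and by TTGCATCA from -112 to -105 of Herpud1. It was held by 1304 of the 32851 promoters (3.97%). Ddit3 held no exact CARE in this window.

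The shorter motifs were common. A CCAAT box alone, which is also the first part of ERSE and, read on the other strand, of ERSE-II, was present in 6 of the 9 promoters and in 37.4% of all. CCACG, the other part of both elements, was present in 6 of the 9 and in 32.8% of all. UPRE (0.676% of all promoters) and CRE (1.79%) were in 0 of the 9. The median GC content was 61.3% in the 9 promoters and 52.7% in all.

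**Figure D3:**
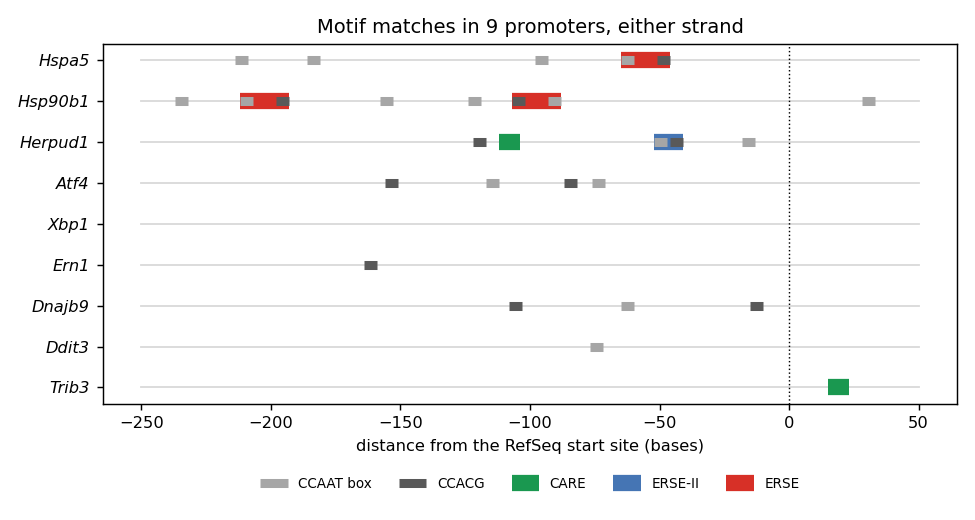
Distance from the start site in bases for each motif match in the 9 promoters of the table, 1 line per gene and 1 colour per motif. ERSE lies at -65 to -47 in Hspa5 and at -212 to -194 and -107 to -89 in Hsp90b1, and ERSE-II at -52 to -42 in Herpud1.

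The 10 genes were set in a wider list of 69 genes of the response in 7 role groups. All 69 were in the table, and 0 were listed at 0. Of the 59 others, 54 lay above the median of the genes above 0 and 34 reached a level of 1000, with a median level of 1163 normalized counts. The median of the 10 was 2085.

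Among the 5 sensors, 4 lay above that median. Atf6 was the highest at 2044 normalized counts, and Ern2, the IRE1 paralog of mucosal epithelia, the lowest at 0.631. Eif2ak3, which encodes PERK and was picked out after its value was seen, had a level of 1188. Per kilobase of coding length Atf6 was 2.92 times Eif2ak3, but per kilobase of transcript only 1.07 times. Eif2ak3 was 1.23 times Ern1 by coding length and 2.17 times by transcript length.

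Of the 7 genes for processing of ATF6 and its OASIS relatives, 5 lay above the median, from Creb3l3, a liver and gut factor, at 14.4 to Mbtps1, the Golgi protease that makes the first cut in ATF6, at 3200.1. In the PERK arm and integrated stress response, 14 of 16 were above it, with Atf4 the highest and Trib3 the lowest of the group. The 3 genes of the IRE1 arm were all above it: Rtcb (listed as D10Wsu52e), the ligase that joins the cut Xbp1 mRNA, was highest at 2268, and Traf2, an adaptor of IRE1 signalling, lowest at 431. Highest and lowest in the role groups are by counts not divided by length. Per kilobase of coding length, Xbp1 (2655) stood above Rtcb (1497), and Creb3l2, an OASIS relative (1062), above Mbtps1 (1014). Per kilobase of transcript both orders were reversed, with Rtcb at 1129 and Xbp1 at 999, and Mbtps1 at 738 and Creb3l2 at 234. Creb3, at 915, then stood above Mbtps1.

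Folding and degradation were covered by 3 groups. All 12 genes of the ER Hsp70 and Hsp90 system were above the median and 10 of them reached 1000, with Hspa5 the highest and Sdf2l1, a BiP cochaperone, the lowest at 335. All 11 lectin chaperones and disulfide enzymes were above it, from Ero1lb, an oxidase, at 397 to Canx, the lectin chaperone calnexin, at 15150.2. In ER-associated degradation 14 of 15 were above it and 12 reached 1000. The lowest of that group was Derl3, a channel component known from secretory cells, at 26.2, and Herpud1 stood above the group's median of 1818. Some of these ends changed with length. Per kilobase of transcript, Dnajc1 (263) stood below Sdf2l1 (302), Ero1l (181) below Ero1lb (202) and Calr (3998) above Canx (3539).

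**Figure D4:**
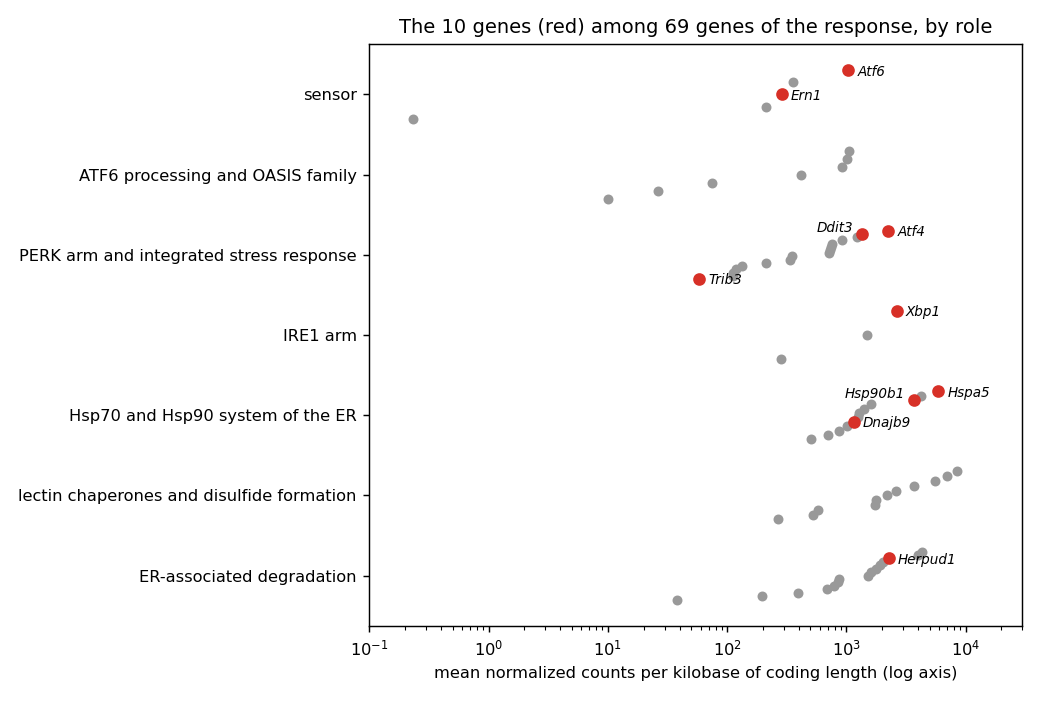
Mean normalized counts per kilobase of coding length (log axis) for the 69 genes by role group, 1 point per gene, with the 10 genes in red. Hspa5 leads the Hsp70 and Hsp90 system, Trib3 is the lowest of the PERK arm, and Ern2, at 0.231, is the lowest point of all.

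ERSE or ERSE-II was also present in other genes of the response. Of the 59 others, 48 had a promoter sequence, and 9 of these held a match (18.8%): Calr, Canx, Creld2, Derl3, Dnajc3, Ero1lb, Pdia6 and Syvn1 an ERSE, and Dnajb11 an ERSE-II. Their levels ran from 26.2 normalized counts in Derl3 to 15150.2 in Canx, so genes with the element were found at both low and high levels.

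Paralogs placed the listed genes, other than Ddit3 and Xbp1, within their families, per kilobase of coding length. Hspa5 (5924) was close to the cytosolic Hspa8 (6502), the ratio of Hspa8 to Hspa5 being 1.10, or 1.66 per kilobase of transcript. The mitochondrial Hspa9 had 2979.8, Hspa4 2089.9 and Hspa14 660.4. The heat-inducible Hspa1a and Hspa1b were at 127 and 229, Hspa2 at 181 and Hspa1l at 11.8. Hsp90b1 (3697) lay next to the cytosolic Hsp90aa1 (3630) and Hsp90ab1 (4156) and was 6.41 times the mitochondrial Trap1 (577).

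The other families were uneven. Trib3 was the lowest of the Tribbles genes, with Trib2 24.2 times and Trib1 8.81 times as high, or 11.3 and 4.33 times per kilobase of transcript. Atf6 was 4.89 times Atf6b, but 1.45 times per kilobase of transcript. Herpud1 was 3.61 times Herpud2, and Atf4 3.02 times Atf5, another factor whose translation rises under stress. Among the ER J-proteins, Dnajb9 (1149.8) ranked below Dnajc3 (4251), Dnajb11 (1601), Dnajc10 (1415) and Sec63 (1245) and above Dnajc1 (872).

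**Figure D5:**
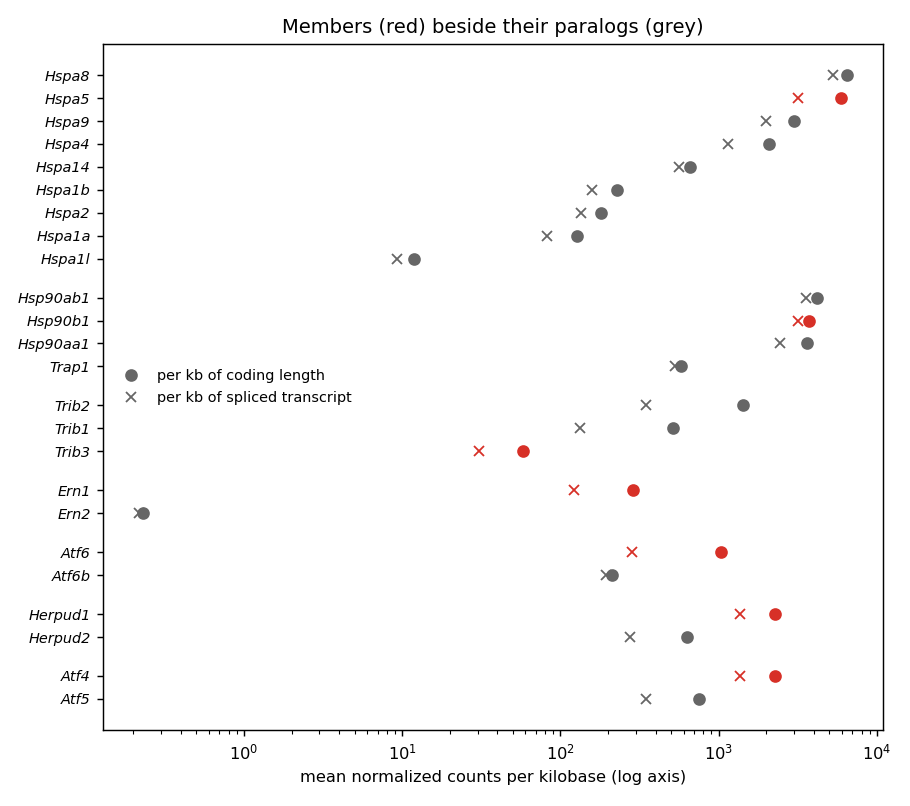
Mean normalized counts per kilobase (log axis) for Hspa5, Hsp90b1, Trib3, Ern1, Atf6, Herpud1, Atf4 and their paralogs, 1 row per gene, grouped by family. Dots are by coding length and crosses by spliced transcript length. Ddit3, Xbp1 and the ER J-proteins with Dnajb9 are not drawn. Hspa5 sits beside Hspa8 and above its other paralogs, Hsp90b1 beside Hsp90aa1 and Hsp90ab1, and Trib3 lies below Trib1 and Trib2.

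Shared sequence bore on some levels. Of the 31-base stretches in a gene's transcripts, all were found in no other gene for Ern1, Atf4, Trib3, Xbp1 and Herpud1, and over 99% for Hspa5 and Atf6. The share was 95.9% in Hsp90b1, 95.4% in Ddit3 and 89.2% in Dnajb9, whose remainder was shared with Gm6568 (7.81 normalized counts). In Ddit3, 75 stretches were shared with a second gene model of the same name, whose exons overlap it on the same strand. Exons of Gm15344 (24.5 normalized counts) and Gm25745 overlap those of Hsp90b1 on the same strand as well. On the opposite strand, exons of Mars (913) overlap those of Ddit3. The library kit was stranded, but the strand setting of the counting is not given in the sources used here, so how far such overlaps enter the levels is not known. Exons on the opposite strand also overlap those of Hsp90b1 (1810014B01Rik, 96.7) and Dnajb9 (Mir5627).

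The level is that of a mixed tissue. RPE markers ran from 69.8 (Best1) to 99321 normalized counts (Ttr) and fibroblast markers from 9187 to 64562. Melanocyte markers ran from 7838 to 89145. These are pigment genes and the RPE is pigmented too, so they do not separate melanocytes from RPE. The rod marker Pde6b stood at 6487, so RNA of photoreceptors was present as well. Endothelial (1025 to 6377), macrophage (779 to 4063) and lens markers (535 to 1973) were lower, and of the plasma cell genes, a cell type in which the response is known to be strong, Tnfrsf17, Mzb1 and Igj were at 5.07, 9.13 and 140.2 and Sdc1, which epithelia also express, at 1136. None of the 34 markers was at 0. Which cells gave the RNA of the 10 genes was not tested, and in bulk tissue fewer cells of a type and less RNA per cell cannot be told apart.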

How the data were processed

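Total RNA of RPE/choroid was sequenced in 3 young and 3 aged mice. The authors depleted ribosomal RNA, prepared stranded libraries without poly(A) selection, used BBDuk for trimming, STAR for alignment against the Ensembl transcriptome (GRCm38) and Sailfish for abundance, applied a total-count scaling and ran DESeq2 between the age groups. The deposited table holds no value per library and no depth. Its baseMean, a normalized signal deposited by the authors, is their mean over all 6 libraries and the only column used. The other columns hold the authors' fold change, its standard error, the Wald statistic, the p-value and the adjusted p-value of their comparison. These were not used, so no comparison of young with aged mice and no test is given, although one had been planned in case values per library were present.

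The 10 genes and all lists were chosen with earlier results of these data known. Genes were matched by symbol, 4 of them through an older symbol. Named genes are the 10, the highest and lowest of each role group (some listed genes are not reported here), every paralog listed and the markers given by value. Eif2ak3, Creb3, Creb3l2, Ero1l and the genes of the wider list with an ERSE or ERSE-II fall outside this rule and were named after their values were seen. Percentiles are among the genes with a baseMean above 0. Coding and transcript lengths are those of the protein-coding transcript with the longest coding sequence in GENCODE M21 (GRCm38), used in place of a planned protein table. Motifs were matched exactly on both strands in RefSeq promoters (GRCm38.p6), which held 9 of the 10 genes. Alternatives were the genes ranked, the length, 1 mismatch in ERSE and the window. Scripts ran in Python 3.11.15 with matplotlib 3.10.9. The percentile and the ERSE search were tested on simulated data, and the other steps were not.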

Additional observations from a re-analysis of the deposited data

How the results depend on the processing

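The median percentile of the 10 genes, 92.2 among genes above 0, was 93.9 when all genes were ranked and 88.5 when genes with a baseMean of at least 10 were ranked. The number above the median of the genes ranked was 9, 10 with all genes ranked and 9 with the minimum of 10. Trib3 moved most, from percentile 47.6 to 58.8 and 22.3. Of 45 pairs of genes, 43 kept their order per kilobase of transcript and 38 without division by length. Without division, Ern1 took place 7 in place of 9 and Ddit3 place 9 in place of 6. The undivided order is the one to read if the levels were already corrected for length. The share of Hspa5 and Hsp90b1 in the summed level, 46.5% per kilobase of coding length, was 54.6% per kilobase of transcript and 64.0% without division by length. With 1 mismatch allowed in ERSE, 4 of the 9 promoters matched in place of 2 (Ddit3 and Herpud1 were added), as did 1.504% of all promoters. With the bases before the start alone, 2 matched. No paired analysis was possible because each gene has a single mean over all libraries. Leaving out each replicate in turn, and every alternative for young against aged mice, was not run for the same reason. Depth per library is unknown here, so the precision of the levels cannot be given.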
